A study of Mus musculus with 16 samples.

Results

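Expression of 10 genes of lipid transport and sterol sensing was measured in engrafted brain macrophages and host microglia of bone marrow chimeras: the apolipoprotein genes Apoe, Apoc1 and Apoc2, the cholesterol transporter genes Abca1 and Abcg1, the receptor genes Nr1h2 and Nr1h3, and Mylip, Lpl and Pltp. They were taken by symbol from a deposited table of 24411 genes, and all 10 were found there. They are a list of symbols, with no threshold on a measured value. RNA came from 16 libraries of 8 wild-type C57BL/6J mice, which had been irradiated with 950 cGy and given bone marrow of wild-type donors that carry the CD45.1 allele. Each brain gave both populations, engrafted cells as Ly6C/G-negative, CD11b-positive, CD45.1-low and host microglia as Ly6C/G-negative, CD11b-positive, CD45.2-low cells. Mice 1 to 4 were killed 12 h after 2.5 mg/kg lipopolysaccharide (LPS), a bacterial cell wall component that provokes inflammation, and mice 5 to 8 were unchallenged controls. This makes 4 groups of 4 libraries, and the 2 libraries of a mouse share an animal. Host microglia had been irradiated with the rest of the animal, and the labels name 3.5 or 9 months after transplantation for the series, of which the methods place RNA sequencing at 9 months.

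Apolipoproteins are the protein part of lipoproteins, and macrophages and glia use them to carry cholesterol and phospholipid out of the cell. The liver X receptors, encoded by Nr1h2 and Nr1h3, are nuclear receptors that bind oxysterols, pair with retinoid X receptors and switch on genes of cholesterol efflux and lipoprotein remodelling, to which the other 8 genes are commonly counted. In the brain, apolipoprotein E is the main lipid carrier and is made by astrocytes and, on activation, by microglia.

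Between 395283 and 1203597 reads per library fell on genes (median 820587.5). Levels are given as CPM, the read count scaled to the effective library size after adjustment by trimmed means (TMM), and 3 reads, the most that a count of 0 allows, were worth 2.34 to 8.73 CPM. The microglia markers P2ry12, Tmem119, Siglech, Sall1, Cx3cr1, Csf1r and Aif1 were present in every group, with summed levels of 12097 to 13022 CPM in engrafted and 16422 to 18199.6 CPM in host libraries without LPS. After LPS they summed to 3876 to 4877 and 6739 to 8735 CPM. Sall1, a transcription factor of microglia, had means of 17.7 CPM in engrafted and 319 CPM in host libraries without LPS. The 7 perivascular macrophage markers were Mrc1, Cd163, Lyve1, Cbr2, Pf4, Folr2 and F13a1. They summed to 850 to 1017 CPM in engrafted and 26.7 to 38.3 CPM in host libraries without LPS. After LPS they summed to 781 to 991 and 23.3 to 33.5 CPM. Mrc1 and Pf4 carried the engrafted sum without LPS, with means of 447 and 373 CPM, while Lyve1 had 3.16 CPM. With LPS these genes moved in opposite directions in engrafted cells. Mean Pf4 went from 373 to 144 CPM and F13a1 from 46.9 to 197 CPM. Means of Cbr2, Folr2 and Lyve1 also fell, and those of Mrc1 and Cd163 also rose.

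Sequences upstream of the 5 genes called between engrafted cells and host microglia in either condition are shown, because the members are commonly read as targets of 1 receptor family. Each run is the 250 bases before a RefSeq start site, 5′ to 3′ on the gene's own strand, and every window was found once in the NCBI37 (mm9) genome, the build of the counts. Windows were matched for 7 of the 10 genes. Capitals mark letters of a nuclear receptor half-site, AGGTCA, or of a relaxed form of the direct repeat that liver X receptors bind, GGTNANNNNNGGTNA, on either strand. All windows shown are on the minus strand: Apoe at chr7:20283748-20283997, Apoc2 at chr7:20263291-20263540, Abca1 at chr4:53172768-53173017, Nr1h3 at chr2:91035193-91035442 and Pltp at chr2:164683209-164683458.
Apoe: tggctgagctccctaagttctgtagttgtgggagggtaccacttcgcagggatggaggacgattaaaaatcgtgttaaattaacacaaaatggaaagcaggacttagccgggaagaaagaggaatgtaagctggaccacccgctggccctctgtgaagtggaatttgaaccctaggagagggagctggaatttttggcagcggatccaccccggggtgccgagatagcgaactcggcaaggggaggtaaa
Apoc2: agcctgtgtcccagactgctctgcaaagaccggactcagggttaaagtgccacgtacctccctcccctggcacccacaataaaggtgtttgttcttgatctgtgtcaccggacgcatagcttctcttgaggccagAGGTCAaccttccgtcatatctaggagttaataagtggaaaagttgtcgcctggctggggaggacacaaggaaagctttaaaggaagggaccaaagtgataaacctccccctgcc
Abca1: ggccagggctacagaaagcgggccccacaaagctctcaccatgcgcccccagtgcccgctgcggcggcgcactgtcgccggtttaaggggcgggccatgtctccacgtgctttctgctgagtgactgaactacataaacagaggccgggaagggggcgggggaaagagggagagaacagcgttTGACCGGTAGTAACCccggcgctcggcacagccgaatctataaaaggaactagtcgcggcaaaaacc
Nr1h3: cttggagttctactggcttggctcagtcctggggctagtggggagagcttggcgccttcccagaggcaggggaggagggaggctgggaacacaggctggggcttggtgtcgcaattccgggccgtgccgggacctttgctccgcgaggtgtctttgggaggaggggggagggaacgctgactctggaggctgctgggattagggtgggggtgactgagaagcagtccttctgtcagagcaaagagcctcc
Pltp: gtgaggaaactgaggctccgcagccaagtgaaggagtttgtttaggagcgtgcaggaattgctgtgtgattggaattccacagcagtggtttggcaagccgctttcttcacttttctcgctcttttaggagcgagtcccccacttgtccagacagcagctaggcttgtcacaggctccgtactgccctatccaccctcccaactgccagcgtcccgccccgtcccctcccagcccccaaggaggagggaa
The half-site occurred in Apoc2 at -115 to -110, and in 14.0% of the 32851 promoters of the RefSeq table. The relaxed repeat occurred in Abca1 at -67 to -53 and in 0.621% of all promoters, and it was written with the known receptor element of Abca1 in view. The strict repeat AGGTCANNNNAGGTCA was in none of the 7 windows and in 0.0152% of all. The window of Apoc2 starts 4021 bases from the start of the transcript model that was counted, whereas for the other 4 genes both starts coincide.

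Without LPS, engrafted cells held more Apoe, Apoc2, Pltp and Abca1 RNA than host microglia, and after LPS they held more Apoe, Apoc2, Pltp and Nr1h3 RNA. LPS raised Apoc2 and lowered Lpl in both populations. It raised Nr1h3 and lowered Pltp and Mylip in engrafted cells. Mylip also fell in host microglia, below the 2-fold limit, and its LPS responses were not told apart. Abca1 moved in opposite directions, below the 2-fold limit in each population. A call required a log2 fold change above 1 or below -1 and a Benjamini-Hochberg adjusted p below 0.05 in edgeR's quasi-likelihood test over all genes that passed a filter on low counts. In bulk RNA of sorted cells, fewer cells that express a gene and less RNA per cell cannot be told apart.

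**Figure D1:**
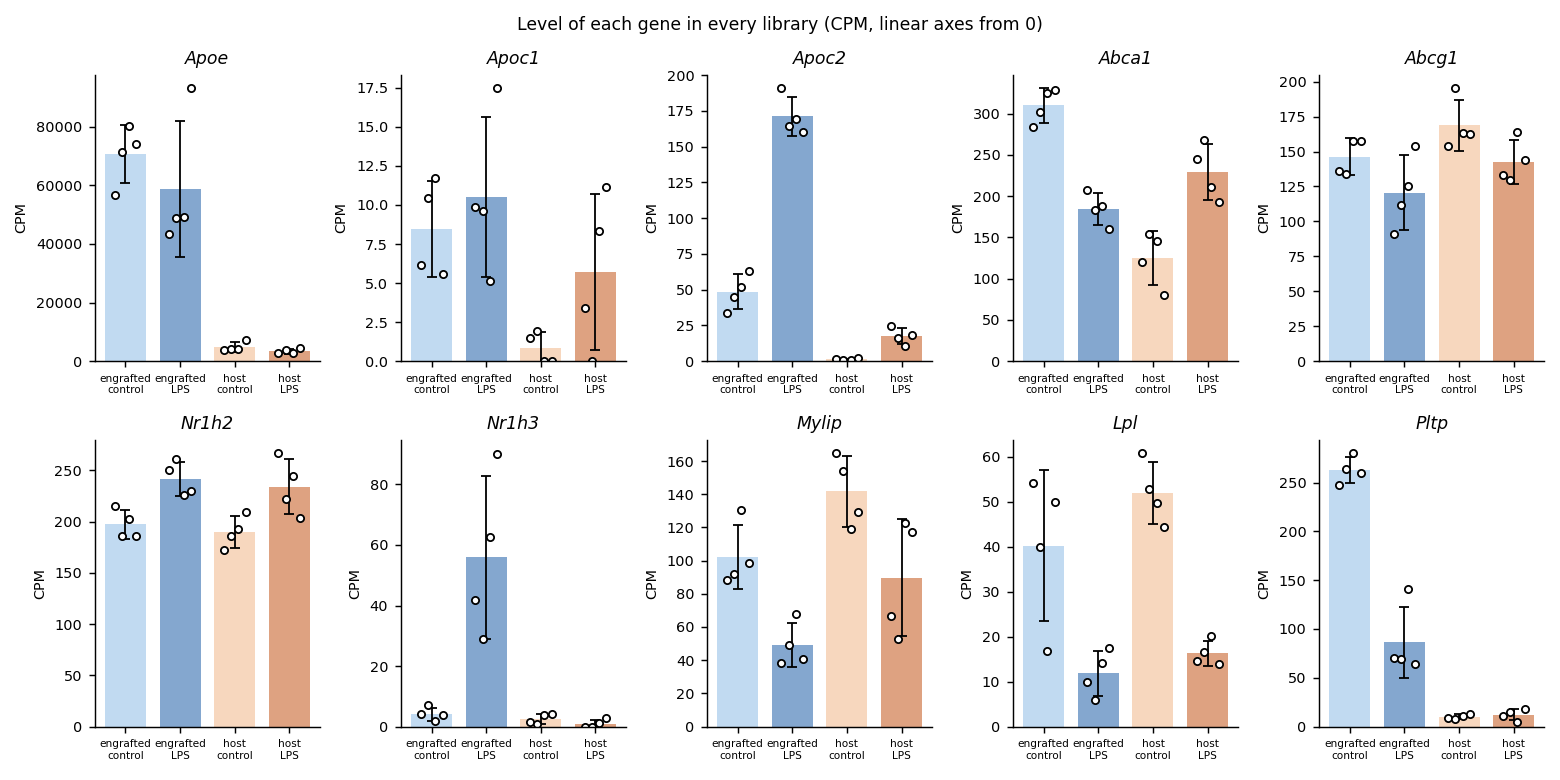
Level of each of the 10 genes in CPM (vertical axes, linear, from 0) in the 4 groups. Bars are means, whiskers SD over 4 mice, and circles the libraries. Apoe, Apoc2 and Pltp stand higher in both engrafted groups than in both host groups, and Nr1h3 is at 28.8 CPM or more in engrafted cells after LPS and at 6.95 CPM or less in every other library.

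Without LPS, 8 members were tested, of which 4 were higher in engrafted cells, where 6.25% of all 8042 genes were, and 0 were lower, where 4.73% were. Whatever the fold, 5 of 8 had an adjusted p below 0.05, against 27.3% of all genes. After LPS, 4 of 9 were higher (6.73% of 7843 genes) and 0 lower (4.34%), and the same 4 of 9 passed whatever the fold (17.2%). LPS in engrafted cells raised 2 of 9 (10.2% of 7609 genes) and lowered 3 (11.3%), and 6 passed whatever the fold (38.7%). LPS in host microglia raised 1 of 8 (7.66% of 8238 genes) and lowered 1 (10.4%), and 5 passed whatever the fold (39.7%). A test of the difference between both LPS responses placed 1 of 9 higher in engrafted cells (2.45% of 8847 genes) and 3 lower (2.5%), all 4 of them among the 5.88% of genes that passed whatever the fold. Some of these genes could pass the filter through their higher group alone, since all 4 libraries of only that group reached its count limit: Apoc2 and Pltp without LPS, Apoc2, Pltp and Nr1h3 after it, Nr1h3 and Lpl for LPS in engrafted cells, and Apoc2 for LPS in host microglia. Without them the counts were 2 higher, 1 higher, 1 higher and 2 lower, and 0 higher and 1 lower in these 4 comparisons, so the counts are a description and not support for the group of genes. In the test of the difference, the only gene placed higher, Nr1h3, likewise could pass through the challenged engrafted libraries alone. The median log2 fold change of the tested members was 0.69, 0.05, -0.30, -0.01 and -0.25 in these 5 comparisons, beside 0.02, -0.01, -0.01, 0.01 and -0.04 over all genes tested. The comparisons share groups, so their values are set side by side and not related to each other.

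**Figure D2:**
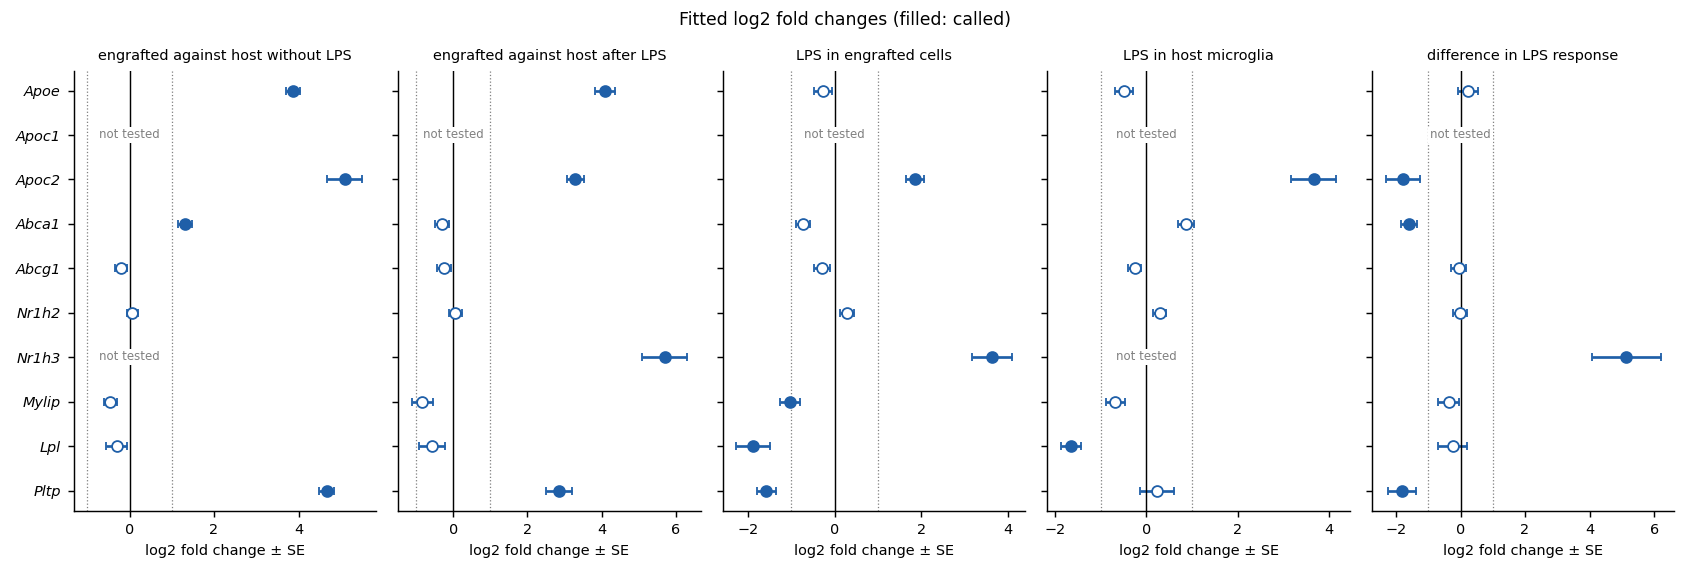
Fitted log2 fold change (horizontal axes) with its standard error for each gene in the 5 comparisons. Filled points were called, dotted lines mark a 2-fold change, and genes outside the filter are written as not tested. Pltp and Apoc2 reach 4.67 and 5.09 without LPS, and the difference in LPS response runs from -1.82 for Pltp to 5.14 for Nr1h3.

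Apoe encodes apolipoprotein E, a ligand of the low density lipoprotein receptor family (NM_001305819, chr7:20281593-20283747, minus strand, mm9). In engrafted cells without LPS it stood at 56772, 71364, 80322.5 and 74210.1 CPM in mice 5 to 8, and in host microglia of the same mice at 3896, 4017, 4162 and 7341 CPM. The groups did not overlap, and the lowest engrafted library was above the highest host library in each condition. Of 8847 genes, 25.7% stood apart in either direction between engrafted and host libraries without LPS, and 20.1% after it. For LPS in engrafted cells the share was 32.8%, and in host microglia 34.7%. After LPS, engrafted cells of mice 1 to 4 held 43291, 48899, 49194 and 93091 CPM and host microglia 2725, 3830.4, 2806 and 4477 CPM. Engrafted cells were higher by 3.87 ± 0.165 (log2, SE) without LPS, which is 14.7-fold (adjusted p = 1.11e-15). After LPS the log2 difference was 4.09 ± 0.278 (adjusted p = 7.26e-09). Apoe alone held 5.86 to 7.86% of all reads in engrafted libraries without LPS and 0.405 to 0.749% in host libraries.

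The effect of LPS on Apoe was under 2-fold in both populations, at -0.26 ± 0.215 in engrafted cells (adjusted p = 0.348) and -0.50 ± 0.197 in host microglia (adjusted p = 0.0491). The host value was close to the threshold: its adjusted p was 0.0502 to 0.0894 with RLE, library totals with and without Apoe, DESeq2, all libraries in one fit or limma, and 0.0125 without a filter. Without the engrafted library of mouse 4, the highest of its group, the first was -0.56 (adjusted p = 0.00358), and without the host library of mouse 8, also the highest of its group, the second was -0.23 (adjusted p = 0.312). It was -0.38 without the host library of mouse 1 and -0.40 without that of mouse 3 (adjusted p = 0.176 and 0.145). The library of mouse 4 was also the shallowest, at 395283 reads. Markers of choroid plexus epithelium (Ttr, Folr1, Kcne2, Enpp2 and Clic6) and of red blood cells summed to 1339 and 4462 CPM in that library, the highest of the group, against 432 to 861 and 2.56 to 46.8 CPM in the other 3. In the host library of mouse 8 they summed to 984 and 505 CPM, against 104 to 369 and 1.56 to 60.8 CPM in the others. The engrafted library of mouse 8 had 2333 and 2965 CPM, the highest of its group, while its Apoe, at 74210.1 CPM, lay inside the group's range. The host library of mouse 4 had 3516 and 556 CPM, also the highest of its group, and the highest Apoe there, at 4477 CPM. The part of these markers in the Apoe values was not tested. Between engrafted and host libraries without LPS, the astrocyte markers summed to 13.4 to 66.1 and 178 to 332 CPM. Slc1a3 carried that sum, with means of 9.97 and 205 CPM, while Aldoc had 10.1 and 13.3 CPM, Slc1a2 4.24 and 5.04 CPM, and Gfap 0 and 0.371 CPM. Their part was not tested either.

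Apoc1, which encodes an apolipoprotein that restrains lipase and transfer protein activity (NM_007469, chr7:20274829-20278008, minus strand), was near the limit of detection in every library and outside the filter in all 5 comparisons. It had 6, 6, 7 and 3 reads in engrafted cells of mice 5 to 8, and 1, 2, 0 and 0 reads in host microglia. These libraries did not overlap, with means of 8.47 ± 3.07 and 0.852 ± 1.00 CPM (SD, n = 4; two-sided exact permutation p = 0.0286, the smallest that 4 against 4 can give). The ratio of both rates was 10.9, with a 95% counting interval of 3.27 to 56.8. After LPS the engrafted libraries had 9, 8, 4 and 6 reads and the host libraries 3, 0, 7 and 8. Those groups overlapped, at 10.5 ± 5.12 and 5.72 ± 4.99 CPM (SD, n = 4; exact permutation p = 0.229).

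Apoc2 encodes apolipoprotein C-II, the cofactor of lipoprotein lipase (NM_001309795, chr7:20256928-20259269, minus strand). Engrafted cells held 33.8, 45.2, 52.0 and 63.0 CPM in mice 5 to 8, and host microglia 1.48, 0.962, 0.779 and 2.02 CPM, from 1, 1, 1 and 2 reads. After LPS, engrafted cells held 191, 164.6, 169 and 160.1 CPM in mice 1 to 4, and host microglia 24.8, 16.5, 10.7 and 18.2 CPM. All 4 groups stood apart without overlap, in the order engrafted with LPS, engrafted, host with LPS, host. LPS raised Apoc2 by 1.86 ± 0.200 in engrafted cells (log2, SE; adjusted p = 4.72e-07) and by 3.67 ± 0.492 in host microglia (adjusted p = 3.41e-06). In host microglia 61 reads stood against 5, a ratio of 14.0 with a 95% counting interval of 5.69 to 44.7. The gene passed the filter there through the challenged libraries alone, so a difference was built into its being tested. Without a filter the value was 3.69 (adjusted p = 4.31e-10), and without the host library of mouse 2 the gene was not tested.

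Engrafted cells exceeded host microglia in Apoc2 by 5.09 ± 0.423 without LPS (adjusted p = 4.97e-10), where the ratio of summed rates was 36.8 with a counting interval of 15.4 to 115. After LPS the difference was 3.29 ± 0.227 (adjusted p = 8.49e-09). In both comparisons Apoc2 could pass the filter through the engrafted libraries alone, so a difference was built into its being tested. The fitted value without LPS rests on 5 host reads and ran from 2.97 to 5.37 over the alternatives. The LPS responses differed by -1.80 ± 0.528 (adjusted p = 0.0401), a call that was lost in 12 of 16 fits that left out 1 library, and that shrank to -0.62 with a prior count of 2 and to -0.01 in limma. The table holds a second model, the readthrough transcript Apoc4-apoc2, on the same strand, with 682 reads beside the 688 of Apoc2 and equal counts in 11 of 16 libraries. Which of both transcripts the reads came from is uncertain.

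The 3 apolipoprotein genes lie in 1 cluster on chromosome 7, so every gene of the table within 100 kb of Apoe was set beside it, a list added after the data were seen. There were 12 rows, all on the minus strand. Apoc4, next to Apoc2, had mean levels of 15.0 CPM in engrafted and 0.836 CPM in host cells without LPS, and 12.7 and 0.579 CPM after it, from 77 reads in all. Tomm40, which encodes a pore of the mitochondrial outer membrane, lies 2.92 kb away and had 96.3 and 91.5 CPM without LPS (log2 difference 0.06 ± 0.159, adjusted p = 0.811). Clptm1, a membrane protein gene 31.2 kb away, had 396 and 451 CPM (-0.17 ± 0.128, adjusted p = 0.35). Nectin2, a cell adhesion gene, was lower in engrafted cells (-1.28 ± 0.258, adjusted p = 0.000398). LPS raised Relb, a subunit of NF-kB, by 1.79 ± 0.301 in engrafted cells (adjusted p = 9.41e-05) and Tomm40 by 1.36 ± 0.173 in host microglia (adjusted p = 1.69e-06). Means also rose in the other population. Relb went from 62.7 to 109 CPM in host microglia, and Tomm40 from 96.3 to 178 CPM in engrafted cells.

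**Figure D3:**
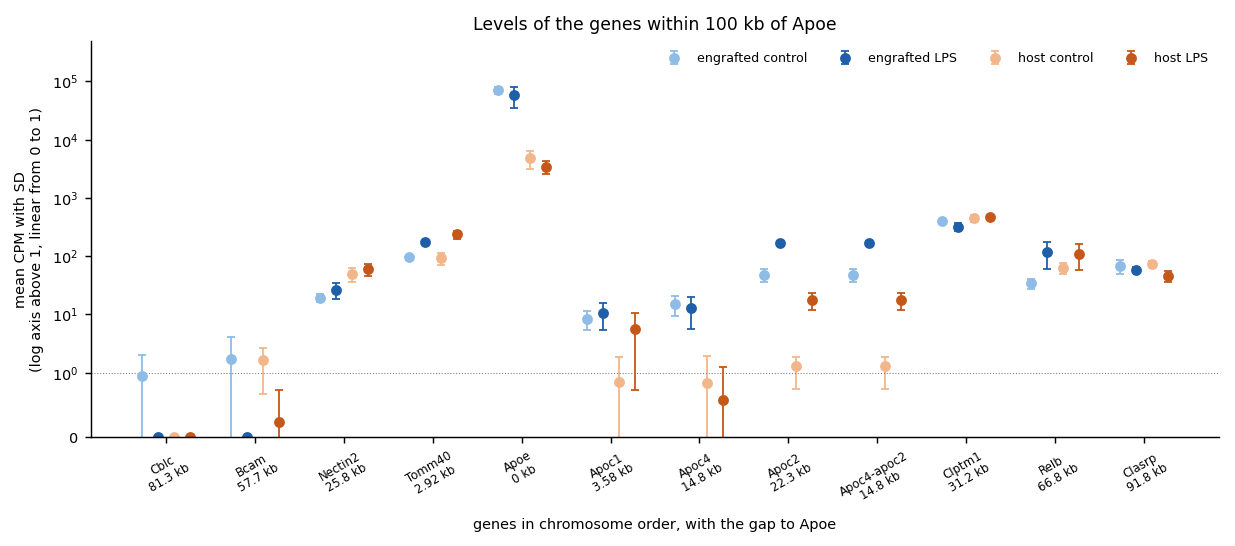
Mean CPM with SD (vertical axis, logarithmic above 1 CPM and linear from 0 to 1; whiskers end at 0) of the 12 table rows within 100 kb of Apoe, in chromosome order with the gap to Apoe in kb under each name. Apoe, Apoc1, Apoc4, Apoc2 and the readthrough row have higher means in both engrafted groups than in both host groups, while Tomm40 and Clptm1 do not; levels are to be compared within a gene only.

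Abca1 encodes the transporter that loads cholesterol and phospholipid onto lipid-poor apolipoproteins (NM_013454, chr4:53043661-53172767, minus strand). Without LPS it stood at 284, 302.5, 325 and 328 CPM in engrafted cells of mice 5 to 8 and at 120.1, 154, 146 and 80.6 CPM in host microglia. After LPS it stood at 207, 184, 188 and 160.1 CPM in engrafted cells of mice 1 to 4 and at 245, 267, 211 and 193 CPM in host microglia. Engrafted and host libraries stood apart without LPS and overlapped after it. Engrafted cells were higher by 1.31 ± 0.165 without LPS (log2, SE; adjusted p = 6.84e-07), and the difference after LPS was -0.30 ± 0.186 (adjusted p = 0.327). LPS changed Abca1 by -0.73 ± 0.169 in engrafted cells (adjusted p = 0.00188) and by 0.87 ± 0.181 in host microglia (adjusted p = 0.00056). The test of the difference between both responses gave -1.60 ± 0.256 (adjusted p = 0.00018), and it ranged from -1.71 to -1.44 over the alternatives.

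Abcg1, the gene of a transporter that passes cholesterol to mature lipoprotein particles (NM_009593, chr17:31194639-31254926, plus strand), was called in no comparison. Its levels were 136, 134, 158 and 158 CPM in engrafted and 154, 195, 164 and 162 CPM in host libraries of mice 5 to 8. After LPS they were 91.1, 112, 126 and 154 CPM in engrafted and 133, 129, 164 and 144 CPM in host libraries of mice 1 to 4. Every group overlapped the next in order. The 4 log2 fold changes lay between -0.30 and -0.20, with adjusted p-values of 0.184 to 0.411, and the LPS responses differed by -0.06 ± 0.234 (adjusted p = 0.933).

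Nr1h2 encodes liver X receptor beta, the form found in most tissues (NM_009473, chr7:51804986-51809335, minus strand). It stood at 215, 186, 203 and 185 CPM in engrafted and at 172, 186, 193 and 209.7 CPM in host libraries of mice 5 to 8. After LPS it stood at 250.2, 261, 225 and 229.9 CPM in engrafted and at 266, 222, 245 and 204 CPM in host libraries of mice 1 to 4. Engrafted and host libraries overlapped in both conditions, with log2 differences of 0.06 ± 0.134 and 0.05 ± 0.179 (adjusted p = 0.775 and 0.889). LPS gave 0.30 ± 0.163 in engrafted cells (adjusted p = 0.16) and 0.29 ± 0.145 in host microglia (adjusted p = 0.112). All 4 challenged engrafted libraries were above all 4 unchallenged ones. In that comparison 32.8% of 8847 genes stood apart without overlap, in either direction. The sign of the difference between populations turned with the scaling, to -0.02 and -0.10 with library totals.

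Nr1h3, the gene of liver X receptor alpha, which is prominent in macrophages and liver (NM_013839, chr2:91024218-91035192, minus strand), was nearly silent outside 1 group. It had 4, 4, 1 and 2 reads in engrafted and 1, 1, 5 and 4 reads in host libraries of mice 5 to 8. After LPS it had 38, 24, 49 and 31 reads in engrafted libraries of mice 1 to 4, or 41.7, 28.8, 62.8 and 90.2 CPM, and 0, 0, 1 and 2 reads in host libraries. The challenged engrafted libraries were above all 12 others, and the gene passed the filter through them alone, so a difference was built into its being tested. LPS raised Nr1h3 in engrafted cells by 3.63 ± 0.457 (log2, SE; adjusted p = 3.34e-06), a ratio of summed rates of 12.1 with a 95% counting interval of 6.56 to 24.8. Engrafted cells after LPS exceeded host microglia by 5.69 ± 0.603 (adjusted p = 1.87e-06), from 142 against 3 reads, a ratio of 57.3 with an interval of 19.2 to 281. The LPS responses differed by 5.14 ± 1.06 (adjusted p = 0.0028), and this fitted value ran from 3.06 to 6.15 over the alternatives. Without a filter the 3 fitted values were 3.67, 5.68 and 5.18 (adjusted p = 8.5e-18, 2.31e-28 and 1.21e-05). Without LPS, 11 reads stood against 11, with means of 4.11 ± 2.17 and 2.59 ± 1.60 CPM (SD, n = 4; exact permutation p = 0.257).

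Monocyte markers moved with the LPS response of engrafted cells. Ly6c2, Ccr2, Vcan, Chil3 and Plac8 summed to 165 to 291 CPM in engrafted libraries without LPS and 919.7 to 1851 CPM after it, and to 5.64 to 23.2 CPM in host libraries. Ly6c2 had a mean of 709.8 CPM after LPS against 30.9 CPM before, whereas Ccr2 had 46.2 against 160 CPM. The 8 neutrophil markers summed to 196 to 746 CPM in engrafted libraries without LPS and 21.6 to 316 CPM after it, and to at most 15.6 CPM in host libraries. S100a8, Ngp, Camp, Ltf and Retnlg carried the sum without LPS, with engrafted means of 136, 99.1, 60.8, 39.0 and 25.2 CPM. Ly6g, Mpo and Elane had 0.256, 0 and 0.838 CPM there, and 1.37, 2.32 and 3.73 CPM after LPS. Whether monocyte or neutrophil markers bear on Nr1h3, Apoc2 or Pltp was not tested.

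Mylip encodes a ubiquitin ligase, also called IDOL, that marks low density lipoprotein receptors for degradation (NM_153789, chr13:45485111-45507309, plus strand). It stood at 88.0, 92.1, 131 and 98.3 CPM in engrafted and at 165, 154, 119 and 129 CPM in host libraries of mice 5 to 8. After LPS it stood at 38.4, 49.2, 67.9 and 40.7 CPM in engrafted and at 66.6, 52.5, 122 and 117 CPM in host libraries of mice 1 to 4. All challenged engrafted libraries were below all unchallenged ones, while the host groups overlapped. LPS lowered Mylip in engrafted cells (log2 fold change -1.03 ± 0.221, adjusted p = 0.000997), close to the 2-fold limit: the value was -0.89 without the engrafted library of mouse 1, -0.96 without that of mouse 4 and -0.88 without that of mouse 7. In host microglia it was -0.67 ± 0.217 (adjusted p = 0.0164). The LPS responses differed by -0.36 ± 0.330 (adjusted p = 0.603). Engrafted against host, the log2 fold change was -0.46 ± 0.151 without LPS (adjusted p = 0.0249) and -0.83 ± 0.284 after it (adjusted p = 0.0543). The last value was called without the host library of mouse 2 (-1.03, adjusted p = 0.0119) or the engrafted library of mouse 3 (-1.02, adjusted p = 0.0341).

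Lpl encodes lipoprotein lipase, the enzyme that frees fatty acids from triglyceride in lipoproteins and needs apolipoprotein C-II (NM_008509, chr8:71404454-71430831, plus strand). It stood at 54.3, 40.0, 16.8 and 50.1 CPM in engrafted and at 60.8, 52.9, 49.9 and 44.4 CPM in host libraries of mice 5 to 8. After LPS it stood at 9.88, 6.01, 14.1 and 17.5 CPM in engrafted and at 14.7, 16.5, 20.2 and 14.0 CPM in host libraries of mice 1 to 4. The challenged libraries were low in both populations. The engrafted groups overlapped where the unchallenged library of mouse 7 (16.8 CPM, 10 reads) met the challenged library of mouse 4 (17.5 CPM, 6 reads). LPS lowered Lpl by 3.67-fold in engrafted cells (log2 fold change -1.88 ± 0.387, adjusted p = 0.000698) and by 3.14-fold in host microglia (-1.65 ± 0.220, adjusted p = 3.24e-06). In engrafted cells Lpl could pass the filter through the unchallenged libraries alone, so a difference was built into its being tested there. Both responses differed by -0.25 ± 0.445 (adjusted p = 0.818), and the populations by -0.31 ± 0.239 without and -0.56 ± 0.348 with LPS (adjusted p = 0.381 and 0.317).

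Pltp encodes phospholipid transfer protein, which moves phospholipid between lipoproteins and remodels them (NM_011125, chr2:164665018-164683208, minus strand). It stood at 248, 264, 279.9 and 259.6 CPM in engrafted cells of mice 5 to 8 and at 8.89, 7.70, 10.9 and 13.1 CPM in host microglia. After LPS it stood at 70.2, 69.7, 141 and 64.0 CPM in engrafted cells of mice 1 to 4 and at 11.3, 14.6, 4.75 and 18.2 CPM in host microglia. Both engrafted groups stood apart from each other and from the host groups, which overlapped. Engrafted cells were higher by 25.4-fold without LPS (log2 fold change 4.67 ± 0.177, adjusted p = 1.33e-16) and by 7.20-fold after it (2.85 ± 0.347, adjusted p = 8.96e-06). In both comparisons Pltp could pass the filter through the engrafted libraries alone, so a difference was built into its being tested. Without a filter the edgeR values were 4.61 and 2.84 (adjusted p = 3.93e-105 and 4.35e-21). LPS lowered Pltp in engrafted cells (-1.58 ± 0.221, adjusted p = 1.18e-05) and gave 0.23 ± 0.368 in host microglia (adjusted p = 0.654). The responses differed by -1.82 ± 0.435 (adjusted p = 0.0109). Ctsa, on the other strand, overlaps Pltp, and counting was by strand.

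Since both populations came from the same animals, the ratio of engrafted to host CPM was also formed within each mouse. For Abca1 the log2 ratio was 1.24, 0.972, 1.16 and 2.02 in mice 5 to 8 and -0.240, -0.540, -0.167 and -0.267 in mice 1 to 4. It was above 0 in 4 of 4 unchallenged and below 0 in 4 of 4 challenged mice (exact permutation p = 0.0286). The mean log2 ratio of Apoc2 was 4.77 without and 3.31 with LPS, and that of Nr1h3 0.61 and 5.57, in both cases without overlap (exact permutation p = 0.0286 each). For Pltp it was 4.65 and 2.84 (exact permutation p = 0.114), and mouse 3, at 4.75, lay among the unchallenged mice. For Apoe it was 3.91 and 4.04 (exact permutation p = 0.629). The other 5 genes gave exact permutation p-values of 0.2 to 0.971 among these 10 tests. All of these p-values are without adjustment for the 10 tests, and 0.0286 is the smallest that 4 against 4 can give.

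**Figure D4:**
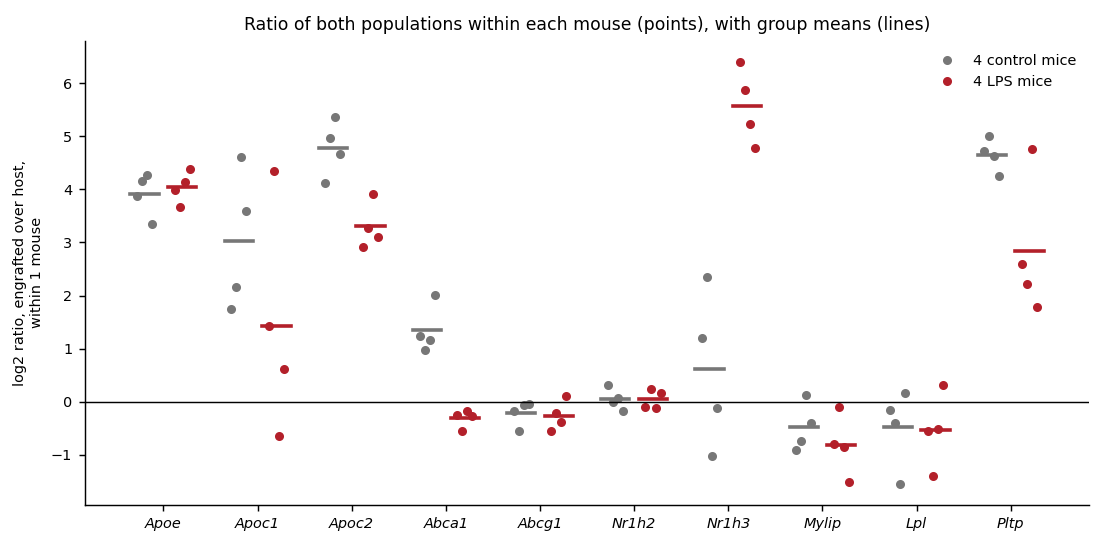
Log2 ratio of engrafted to host CPM within each mouse (vertical axis; 0.5 CPM added to both) for the 10 genes, with control mice in grey, LPS mice in red, and lines at the means. Abca1 lies above 0 in every control mouse and below 0 in every LPS mouse, and Apoe lies between 3.34 and 4.38 in all 8.

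The counts of other lipid genes that follow are to be read against the shares of all tested genes: 6.25% higher and 4.73% lower without LPS, 6.73% and 4.34% after it, 10.2% and 11.3% for LPS in engrafted cells, 7.66% and 10.4% in host microglia, and 2.45% and 2.5% for the difference. As with the members, a gene low in 1 group could pass the filter through its higher group alone. Among other genes commonly counted as targets of liver X receptors, 14 in the table, 8 or 9 were tested per comparison. Without LPS, 1 was higher in engrafted cells, Smpdl3a, a phosphodiesterase gene (1.29 ± 0.295, log2, SE; adjusted p = 0.00148). The 2 lower genes were Mlxipl, a glucose-sensing transcription factor gene (-3.13 ± 0.164, adjusted p = 5.51e-14) and Lpcat3, which remodels phospholipids (-1.54 ± 0.160, adjusted p = 2.59e-08). After LPS, 2 were higher and 2 lower. LPS raised 1 and lowered 2 in engrafted cells, and raised 1 and lowered 1 in host microglia. Scd2, a fatty acid desaturase gene, rose in engrafted cells (mean 35.1 to 154 CPM; 2.16 ± 0.213, adjusted p = 1.44e-07) and had 53.4 and 65.7 CPM in host microglia, and its responses differed by 1.86 ± 0.278 (adjusted p = 8.55e-05). Fasn, fatty acid synthase, rose in host microglia (24.6 to 65.1 CPM; 1.43 ± 0.210, adjusted p = 1.18e-05) and had 25.4 and 30.2 CPM in engrafted cells, with a difference of -1.22 ± 0.347 (adjusted p = 0.0353) that was called in 7 of 16 fits without 1 library. Arl4c, a small GTPase gene, fell in both, by -1.47 ± 0.176 and -1.35 ± 0.179 on the log2 scale (adjusted p = 1.83e-06 and 3.1e-06).

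Of 14 genes of receptor partners and coregulators, 12 or 13 were tested, and none differed in its LPS response. Rxrg, the gamma form of the retinoid X receptor, had 0 reads in all 4 unchallenged engrafted libraries and 258 in the host libraries, and 1 against 98 reads after LPS. Those 0 counts allow up to 3 reads, or 3.07 to 5.56 CPM, per library, beside a host mean of 63.4 CPM. Rxra and Rxrb, the other forms, named here although neither was called, differed by -0.16 ± 0.164 and -0.12 ± 0.132 without LPS (adjusted p = 0.524 and 0.544). Ncoa1, a coactivator gene, was higher in engrafted cells after LPS (1.04 ± 0.250, adjusted p = 0.00687), in 5 of 8 fits without 1 library.

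Of 15 genes that make receptor ligands or handle cholesterol, 10 to 12 were tested. Without LPS, 3 were higher in engrafted cells and 1 lower, and after LPS, 2 and 1. Cyp27a1, which makes an oxysterol ligand, was higher in engrafted cells without LPS (260.4 against 70.4 CPM; 1.89 ± 0.152, adjusted p = 2.71e-10) and fell with LPS in both populations, to 47.3 and 19.2 CPM. Ch25h, which makes another oxysterol, rose from 42.9 to 117 CPM in engrafted cells and from 20.1 to 740.0 CPM in host microglia (5.17 ± 0.653, adjusted p = 1.6e-06). The challenged host libraries spread widely, at 945, 1736, 194 and 85.2 CPM in mice 1 to 4, and without the highest the value was 4.31 (adjusted p = 2.69e-07). Its responses differed by -3.71 ± 0.808 (adjusted p = 0.00483), and after LPS it was lower in engrafted cells (-2.64 ± 0.617, adjusted p = 0.00548), although the host library of mouse 4 was below all 4 engrafted ones. Without the host library of mouse 2 these values were -2.85 and -1.78 (adjusted p = 0.0132 and 0.0283). LPS raised Tspo, a mitochondrial membrane protein used as a marker of glial activation, by 2.68 ± 0.193 in engrafted cells (adjusted p = 1.83e-09) and 1.54 ± 0.142 in host microglia (adjusted p = 1.94e-08).

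Of 14 lipoprotein receptor genes, 8 to 10 were tested. Cd36, a scavenger receptor for oxidized lipoprotein, had 153 reads in engrafted and 4 in host libraries without LPS (means of 57.1 and 0.928 CPM; 5.64 ± 0.495, adjusted p = 1.35e-09). It fell to 2.17 CPM in engrafted cells after LPS (-4.65 ± 0.494, adjusted p = 4.01e-07), beside 1.78 CPM in host microglia. In both comparisons Cd36 passed the filter through the unchallenged engrafted libraries alone, so a difference was built into its being tested. Trem2, a lipid and apolipoprotein receptor of microglia, fell in both populations, from 2476 to 679.9 CPM and from 3095 to 1192 CPM. Sort1, sortilin, was lower in engrafted cells (-1.27 ± 0.168, adjusted p = 1.52e-06) and rose with LPS by 1.04 ± 0.212 and 1.03 ± 0.157 (adjusted p = 0.000632 and 1.75e-05), each called in 6 of 8 fits without 1 library. Among 12 other apolipoprotein genes, only Clu, clusterin, was tested, and it was not called in any comparison. Of 14 other ABC transporter genes, 6 or 7 were tested, none was called without LPS, and LPS raised Abca7 in engrafted cells (45.0 to 107 CPM; 1.22 ± 0.210, adjusted p = 0.000121), with a difference in response of 1.07 ± 0.256 (adjusted p = 0.0109; called in 13 of 16 fits without 1 library).

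Of 16 genes of lipases and their partners, 8 or 9 were tested. Plin2, the coat protein of lipid droplets, rose from 38.5 to 375 CPM in engrafted cells (3.31 ± 0.215, log2, SE; adjusted p = 5.36e-10) and from 17.4 to 52.9 CPM in host microglia (1.63 ± 0.245, adjusted p = 1.5e-05). The rise was larger in engrafted cells by 1.68 ± 0.329 (adjusted p = 0.00174). Fabp5, a fatty acid binding protein, rose in engrafted cells from 8 to 85 reads (3.22 ± 0.515, adjusted p = 5.48e-05), whereas host libraries held 2 and 1. Fabp5 passed the filter through the challenged engrafted libraries alone, so a difference was built into its being tested. Mgll, monoacylglycerol lipase, fell in both populations, by -2.52 ± 0.247 and -2.66 ± 0.178 on the log2 scale (adjusted p = 1.27e-07 and 1.57e-10).

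**Figure D5:**
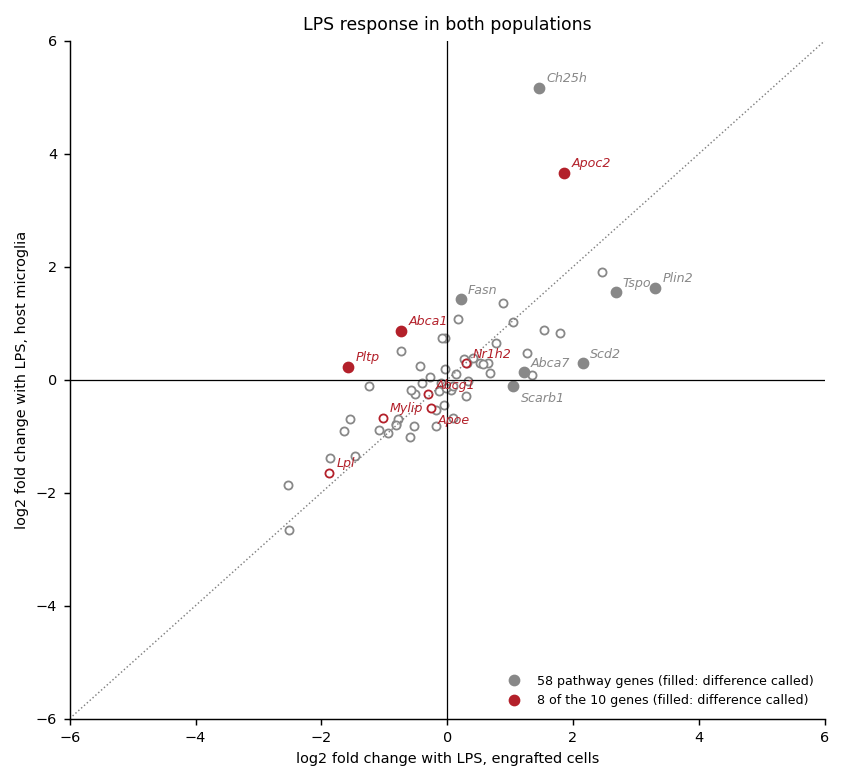
Log2 fold change with LPS in engrafted cells (horizontal axis) and in host microglia (vertical axis) for the 8 members and 58 other genes of the lists that were tested in both. Filled points had a called difference between the responses, which holds for 7 of the 58, and the dotted line marks equal responses. Lpl lies near the line at -1.88 and -1.65, and Abca1 lies left of and above the origin.

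The genes whose levels ran most alike across the 16 libraries were found by Pearson's r of log2(CPM + 1) among 3795 genes whose mean over the libraries reached 50 CPM, as a description, since the libraries share mice, groups and depth. For Apoe these were Ms4a7, Mrc1 and Ctse (r = 0.984, 0.982 and 0.98). For Pltp they were Clec12a, Ms4a7 and H2-Eb1 (r = 0.985, 0.963 and 0.958). Mrc1 is a marker of perivascular macrophages, Ms4a7 is often used as a marker of macrophages outside the microglial lineage, and H2-Eb1 is an MHC class II gene. For Apoc2, after the readthrough row (r = 1.0), they were Lilr4b and Grk6 (r = 0.983 and 0.98). The highest r was 0.899 for Abca1 (Ctsc), 0.911 for Abcg1 (Trim47), 0.915 for Nr1h2 (Psmd3) and 0.943 for Mylip (Usp2).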

How the data were processed

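RNA of 10,000 sorted cells per library was captured by its poly(A) tail and sequenced with a derivation of MARS-seq. The deposited values are raw read counts per gene: the authors mapped reads to mm9 and used HOMER to count, strand by strand and without normalization, those on the exons of 1 model per RefSeq gene, and the submitters' processing notes name HISAT 0.1.5. No removal of PCR duplicates is named, so counting intervals (95%, from exact binomial limits) and limits of detection cover counting error only. Every one of the 16 deposited libraries had a column of its own.

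From these counts, differences between groups were tested with edgeR 4.0.16 in R 4.3.3 (filter with a minimum count of 10 and a minimum total of 15, TMM, quasi-likelihood test, edgeR's default prior count, Benjamini-Hochberg adjustment over all genes tested), 8 libraries per comparison and 16 for the difference in LPS response. Standard errors follow from each fold change and the F value of its test. Genes outside the filter and within-mouse ratios (0.5 CPM added) were tested by two-sided exact permutation, whose smallest p is 0.029. Tests were tried on simulated counts. Alternatives were RLE factors, library totals with and without Apoe, DESeq2 1.42.0, other filters, all libraries in one fit, limma 3.58.1 on the study's log2 scale, the p without the fold, a prior count of 2 (chosen after seeing the data, as was leaving out libraries for list genes), each library left out and the mouse as a replicate block. Replicate libraries differed by 1.98 to 8.64 times counting noise (chi-square per degree of freedom, 24 pairs), so none was a copy.

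Libraries of both populations with the same number came from 1 animal, per the series' design text. Deviations from the group means of both libraries of a mouse correlated at 0.123, 0.0142, 0.194, 0.114, 0.0183, -0.0335, 0.0517 and 0.077 in mice 1 to 8, and the block changed no member's call (4 called without LPS, 4 after LPS and 4 in the difference). The members, the 8 gene lists and 12 marker lists were chosen with earlier results of these data known. A marker gene each of 2 of these lists is not reported here and was left out of the sums. Named are all members, per list, comparison and direction at most 2 called genes with the largest fold, up to 3 genes most like a member, and genes near Apoe.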

Additional observations from a re-analysis of the deposited data

Results flagged for a closer look

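Among 40 sets of 4 libraries (10 genes in 4 groups), 3 had a library farther from the others than Dixon's 95% critical value allows, and chance flags about 1 set in 20. Apoe was highest in the unchallenged host library of mouse 8, at 7341 CPM. It was also highest in the challenged engrafted library of mouse 4, at 93091 CPM, the library with the fewest reads. Pltp was highest in the challenged engrafted library of mouse 3, at 141 CPM.

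For 4 of the 9 tested genes the LPS response differed between the populations in edgeR's test of the interaction. Of these, 1 was higher in engrafted cells, where 2.45% of all 8847 genes were, and 3 were lower, where 2.5% were. The log2 difference, engrafted minus host, was 5.14 for Nr1h3 (adjusted p = 0.0028), -1.60 for Abca1 (adjusted p = 0.00018), -1.82 for Pltp (adjusted p = 0.0109) and -1.80 for Apoc2 (adjusted p = 0.0401). The call of Apoc2 was lost in 12 of 16 fits that left out 1 library. Nr1h3 could pass the filter through the challenged engrafted libraries alone.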

How the results depend on the processing

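Of 805 refitted log2 fold changes of the 9 genes tested (all but Apoc1), 756 kept their direction and side of the threshold. Where 10 reads were required in every library, the numbers of members called moved to 2 without LPS, 1 after LPS, 3 and 1 for LPS in engrafted cells and host microglia, and 1 for the difference, since low genes were no longer tested. Without the fold limit 5 members passed for LPS in host microglia, and 1 to 2 were called with 1 library left out. The difference in response for Apoc2 was -1.91 with DESeq2 (adjusted p = 0.0984), -1.76 without a filter (adjusted p = 0.053), -0.01 in limma and -0.62 with a prior count of 2, and the cause was not tested. The within-mouse change of Apoc2 was -0.72 with 2 CPM added (exact permutation p = 0.0571). LPS on Mylip in engrafted cells was -0.98 without a filter, -0.91 in limma and -0.99 with a prior count of 2. The mouse as a replicate block changed no call, with 4 members called in each of the 3 comparisons that allowed it.

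Signs turned for uncalled values between -0.25 and 0.22. Nr1h2 between populations was -0.0235 (library totals) and -0.0802 (limma) without LPS, and -0.10 (library totals), -0.0272 (totals without Apoe) and -0.0123 (limma) after LPS, with -0.007371 to 0.12 over left-out libraries. In the difference of responses Nr1h2 was 0.0303 with RLE, 0.0310 with DESeq2, 0.0287 without a filter and 0.0679 in limma, Abcg1 0.0205 and Lpl 0.11 in limma. With 1 library left out these differences ran from -0.0571 to 0.0750 for Nr1h2, -0.17 to 0.0624 for Abcg1 and -0.0940 to 0.38 for Apoe. Scaling by totals put the median of all genes after LPS at -0.16 on the log2 scale, and the split of calls there at 448 higher and 470 lower, against 528 and 340 with TMM. Limma put that median at -0.12 without LPS, and totals without Apoe at -0.12 in the difference. In limma the splits were 342 and 411 without LPS (503 and 380 in edgeR), 774 and 576 for LPS in engrafted cells (779 and 858), and 331 and 177 for the difference (217 and 221). Genes with few reads (Apoc1, Nr1h3 outside 1 group, Apoc2 in host microglia) limit what this depth shows.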

Other observations

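Other genes of the lists add to the picture of lipid handling after LPS. Soat2, which esterifies cholesterol for storage, rose in both populations, from 9.96 to 56.2 CPM in engrafted cells (log2 fold change 2.46 ± 0.375, adjusted p = 3.09e-05) and from 13.2 to 48.7 CPM in host microglia (1.90 ± 0.267, adjusted p = 6.27e-06). In both populations Soat2 could pass the filter through the challenged libraries alone, so a difference was built into its being tested. Lipa, the lysosomal lipase that frees cholesterol from its esters, fell in engrafted cells from 146 to 50.5 CPM (-1.55 ± 0.185, adjusted p = 1.72e-06). In host microglia its means went from 108 to 66.2 CPM. Scarb1, a receptor for high density lipoprotein, had 25.0 and 52.9 CPM in engrafted cells and 46.5 and 43.0 CPM in host microglia without and with LPS, and its responses differed by 1.15 ± 0.335 (adjusted p = 0.0389), a call kept in 7 of 16 fits without 1 library. Abcb4, a phosphatidylcholine transporter, fell in host microglia from 32.4 to 6.38 CPM (-2.36 ± 0.305, adjusted p = 2.18e-06). It passed the filter there through the unchallenged libraries alone, so a difference was built into its being tested. The means of Abcb4 in engrafted cells went from 21.4 to 4.93 CPM. Abca9 fell in engrafted cells from 74.8 to 22.7 CPM (-1.65 ± 0.261, adjusted p = 5.05e-05), and its host means went from 79.0 to 42.6 CPM.

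Of the remaining marker lists, B cell markers summed to 15.6 to 76.5 CPM, T and NK cell markers to between 0 and 26.2 CPM, endothelial markers to 6.70 to 41.7 CPM, neuronal markers to 5.59 to 185 CPM and oligodendrocyte markers to 84.6 to 225 CPM. Choroid plexus markers reached 2333 CPM in an unchallenged engrafted library and 3516 CPM in a challenged host library.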
